A study of Mus musculus with 6 samples.

Results

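The 7 genes described here encode the urea cycle, and they were picked by symbol (Cps1, Otc, Ass1, Asl, Arg1, Nags and Slc25a15) from the 32285 genes listed for every library. They were followed in the hepatocyte nuclei of 6 male DIAMOND mice, a cross of 129A1/SvIm and C57BL/6J animals, with 1 single nucleus RNA library per mouse from snap-frozen liver. Diets began at 2 months of age. The 2 Ctrl mice ate chow for 40 weeks, the 2 Pre-T mice a Western diet (WD; fatty food plus sugar in the drinking water) for the same 40 weeks, and the 2 Post-T mice the WD for 48 weeks. Post-T mice had developed tumors, and their sample titles name tumor where the source name is liver, so how much tumor the sampled piece held is not known here. Time on diet and tumor stage cannot be told apart in Post-T, and nothing in the labels ties mice to litters or batches. By the paper, the groups were kept in separate cages without randomization, so cage cannot be told apart from group.

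The urea cycle turns ammonia from amino acid breakdown into urea, and in the body it runs in full almost only in hepatocytes. Nags makes N-acetylglutamate, the obligate activator of Cps1. Cps1 then joins ammonia and bicarbonate to carbamoyl phosphate in mitochondria, and Otc condenses it with ornithine to citrulline. Slc25a15 is the carrier that exchanges ornithine and citrulline across the inner mitochondrial membrane. In the cytosol Ass1 and Asl add the nitrogen of aspartate and form arginine, and Arg1 splits arginine into urea and ornithine. In healthy liver the cycle is richest around the portal vein, while hepatocytes around the central vein make glutamine with Glul instead.

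In the mm10 genome (GRCm38, GENCODE M21) Cps1 is the longest of the loci (ENSMUSG00000025991, chr1:67123026-67231259, plus strand). Otc lies on the X chromosome (ENSMUSG00000031173, chrX:10252305-10321024, plus strand). Ass1 is at chr2:31470207-31520672 on the plus strand (ENSMUSG00000076441), Asl at chr5:130011258-130029247 on the minus strand (ENSMUSG00000025533), and Arg1 at chr10:24915221-24927484 on the minus strand (ENSMUSG00000019987). Nags spans only 3965 bases (ENSMUSG00000048217, chr11:102145513-102149477, plus strand), and Slc25a15 is at chr8:22375551-22398597 on the minus strand (ENSMUSG00000031482). Each value belongs to a gene as a whole and not to an exon or intron, and levels are not compared between genes because gene lengths run from 3.965 to 108.234 kb.

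Promoter windows of RefSeq (GRCm38.p6) were at hand for 4 of the 7 genes, Otc, Ass1, Nags and Slc25a15. The 250 bases before the start are shown for Otc, which fell in Post-T, and for Nags, which did not. Capitals mark matches to 6 patterns searched on both strands.
Otc, chrX:10252055-10252304, plus strand: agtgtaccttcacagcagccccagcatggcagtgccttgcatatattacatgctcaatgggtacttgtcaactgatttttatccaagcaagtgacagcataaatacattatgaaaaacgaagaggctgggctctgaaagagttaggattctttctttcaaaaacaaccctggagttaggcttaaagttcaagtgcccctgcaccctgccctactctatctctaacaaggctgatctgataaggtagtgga
Nags, chr11:102145263-102145512, plus strand: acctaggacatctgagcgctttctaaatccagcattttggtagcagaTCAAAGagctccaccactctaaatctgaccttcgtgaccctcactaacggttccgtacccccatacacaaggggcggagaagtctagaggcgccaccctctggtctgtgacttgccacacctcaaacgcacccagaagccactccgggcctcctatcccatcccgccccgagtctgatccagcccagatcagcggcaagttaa
Only the Nags window held a match, to the TCF/LEF pattern CTTTGA at 203 bases before the start, which 13.8% of all 32817 windows also hold. No window of the 4 genes held the TATA box TATAAA (12.4% of all windows), the C/EBP pattern TTGCNNAA (9.57%), the CRE half-site TGACG (17.7%), the HNF4 half-site CAAAGTC (3.84%) or the glucocorticoid half-site TGTTCT (16.1%). GC content was 43.6% in the Otc window, 55.6% in that of Nags and 75.6% in that of Ass1, against a median of 52.4% over all windows. None of these matches is evidence of binding.

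After filtering, 39012 of 41882 barcodes were kept, and 12116 nuclei were in hepatocyte clusters, from 865 to 3596 per mouse. Per mouse these summed to between 6843403 and 16198553 unique molecular identifiers (UMIs, 1 per captured transcript). All 12 hepatocyte markers were detected in the hepatocyte nuclei of every mouse. Their summed level was 31343 and 23436 CPM (counts scaled to the total UMIs of the same nuclei) in Ctrl, 12771 and 16722 in Pre-T and 10424 and 19582 in Post-T, so the markers as a whole were also lower on the WD. Median depth ran the other way, at 3560.5 and 4355 UMIs per hepatocyte nucleus in Ctrl, 6944.5 and 7653 in Pre-T and 7458.5 and 9117.5 in Post-T. Hepatocyte nuclei of different groups mostly fell into different clusters, so differences between groups are also differences between clusters. Another 12738 nuclei, mostly shallow, stayed unnamed, and 181 barcode sequences occurred in more than 1 library. Summed over the 7 genes, the urea cycle took 7853 and 9447 CPM in Ctrl hepatocytes, 1953 and 3994 in Pre-T and 1597 and 1679 in Post-T.

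Cps1 carries out the committed mitochondrial step. Its level was 4407 and 5177 CPM in the Ctrl mice, 1147 and 2434 in Pre-T and 910.0 and 1127 in Post-T. Both Ctrl mice were far above all 4 WD mice, while Post-T 2 was close to Pre-T 1. On the log2 scale, with normalization between mice, Cps1 was lower by -1.75 ± 0.52 (SE, n = 2 mice a group) in Pre-T and by -2.20 ± 0.53 in Post-T against Ctrl, and neither difference passed edgeR's quasi-likelihood test adjusted over all genes (adjusted p = 0.262 and 0.0904).

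Otc fell in Post-T. It had 456 and 445 CPM in Ctrl, 118 and 248 in Pre-T and 51.0 in each of the Post-T mice. The 3 groups did not overlap, and the Pre-T mice lay between the other two groups. Against Ctrl the log2 difference was -3.12 ± 0.43 in Post-T (edgeR adjusted p = 0.0337), 8.72-fold lower, and -1.64 ± 0.41 in Pre-T (adjusted p = 0.218). The Post-T level differed from that of Pre-T by -1.49 ± 0.41 (adjusted p = 0.146).

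The carrier Slc25a15 had 229.7 and 175 CPM in Ctrl, 62.4 and 124 in Pre-T and 79.9 and 59.5 in Post-T. The Ctrl mice were above all others and the WD groups overlapped. Its log2 difference against Ctrl was -1.46 ± 0.39 in Pre-T (edgeR adjusted p = 0.241) and -1.55 ± 0.39 in Post-T (adjusted p = 0.0978). Nags was the only member that was not lower in Post-T. It was sparse, with 13.7 and 12.6 CPM in Ctrl, 13.0 and 10.4 in Pre-T and 21.2 and 24.3 in Post-T. Both Post-T mice were above the other 4, while Ctrl and Pre-T overlapped. The log2 difference was 0.82 ± 0.29 against Ctrl (edgeR adjusted p = 0.162) and 1.33 ± 0.29 against Pre-T (adjusted p = 0.112), and neither passed.

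The cytosolic steps differed from each other mainly in Post-T. Ass1 had 1011 and 1004 CPM in Ctrl, 205 and 441 in Pre-T and 399.7 and 297 in Post-T. The WD groups overlapped, with Post-T inside the range of Pre-T. The log2 difference was -1.98 ± 0.43 in Pre-T (edgeR adjusted p = 0.201) and -1.54 ± 0.42 in Post-T (adjusted p = 0.113) against Ctrl. Asl had 408 and 727 CPM in Ctrl, 93.9 and 189 in Pre-T and 66.4 and 109.9 in Post-T, with the WD groups again overlapping. Its log2 difference was -2.33 ± 0.54 in Pre-T (edgeR adjusted p = 0.206) and -2.62 ± 0.55 in Post-T (adjusted p = 0.0696).

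Arg1, which releases urea, fell in Post-T, by more than any other member in that comparison. It had 1327 and 1906 CPM in Ctrl, 313 and 547 in Pre-T and 69.1 and 10.6 in Post-T. No group overlapped another, and Post-T 2 stood far below Post-T 1. Against Ctrl its log2 difference was -5.43 ± 0.91 in Post-T (edgeR adjusted p = 0.0472), 43.1-fold lower, and -2.24 ± 0.79 in Pre-T (adjusted p = 0.292). Against Pre-T it was -3.19 ± 0.82 in Post-T (adjusted p = 0.136). Without Post-T 2 the log2 difference from Ctrl was -4.68 ± 0.60 (adjusted p = 0.030), and without Post-T 1 it was -7.08 ± 0.70 (adjusted p = 0.0162).

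**Figure D1:**
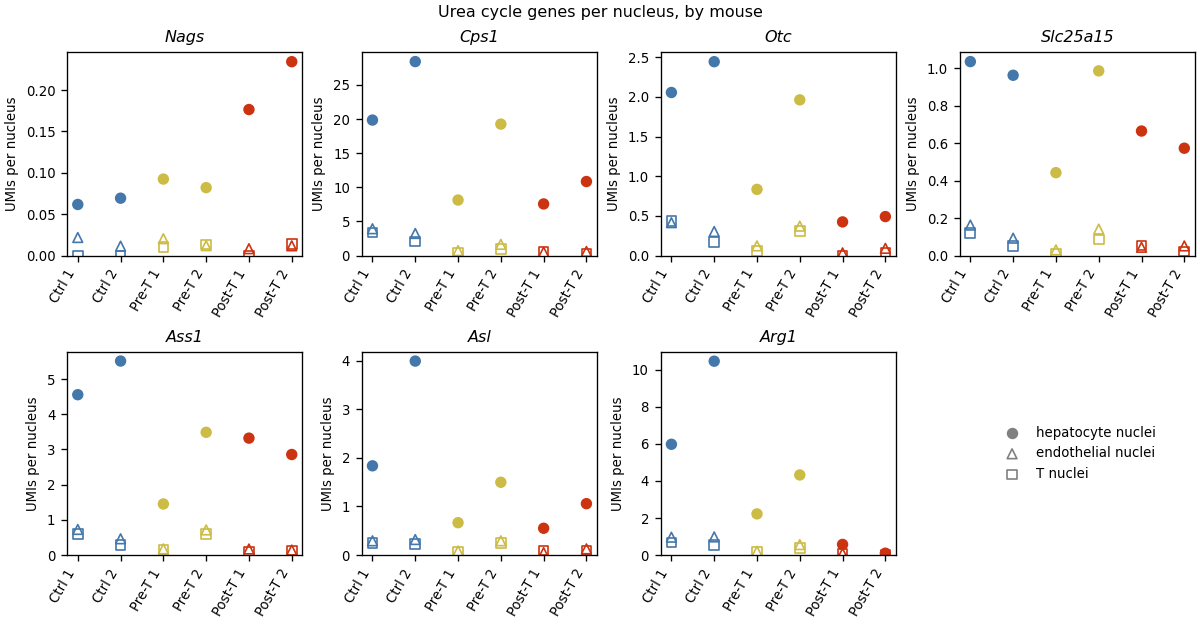
Mean UMIs per nucleus of each urea cycle gene (vertical axes, 1 panel a gene, each from 0) in the 6 mice, for hepatocyte nuclei (filled circles), endothelial nuclei (triangles) and T nuclei (squares). In Ctrl hepatocytes Arg1 had 5.98 and 10.5 UMIs per nucleus, and in Post-T it had 0.574 and 0.102, while Nags was highest in Post-T.

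In all, 2 of the 7 genes passed the test in the lower direction in Post-T against Ctrl, Otc and Arg1, and none in the higher direction. Over all 18996 genes tested, 1.59% were lower and 0.737% higher. In Pre-T against Ctrl no member passed, against 0% of all genes lower and 0.00526% higher, and 6 members had an unadjusted p under 0.05, as had 2821 of the 18996 genes. In Post-T against Pre-T no member passed, against 0.1% of all genes lower and 0.0263% higher, and 3 members had an unadjusted p under 0.05, as had 3956 of the 18996 genes. In Post-T against Ctrl this held for all 7 members and 4637 genes. The median log2 difference of the members was -1.75 in Pre-T and -2.20 in Post-T against Ctrl, where the median over all genes tested was 0.01 and -0.01. Both contrasts share the Ctrl mice. DESeq2 on the same counts called 5 members lower in Pre-T, when 3.12% of its genes were lower, and 6 in Post-T, when 7.76% were. Between Post-T and Pre-T it called 2 members lower and 1 higher, when 6.55% of its genes were lower and 5.63% higher. Leaving out Ctrl 1 or Ctrl 2 ended both edgeR calls, with the lone Ctrl mouse assumed to vary like the other groups (Otc adjusted p = 0.211 and 0.156, Arg1 0.229 and 0.188). Leaving out Pre-T 1 or Pre-T 2 ended that of Arg1 (adjusted p = 0.0712 and 0.0672). Nothing says that the 2 samples of a group are more than separate mice. The p-values therefore rest on the spread between the 2 mice of a group, pooled over the 3 groups (3 residual degrees of freedom).

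**Figure D2:**
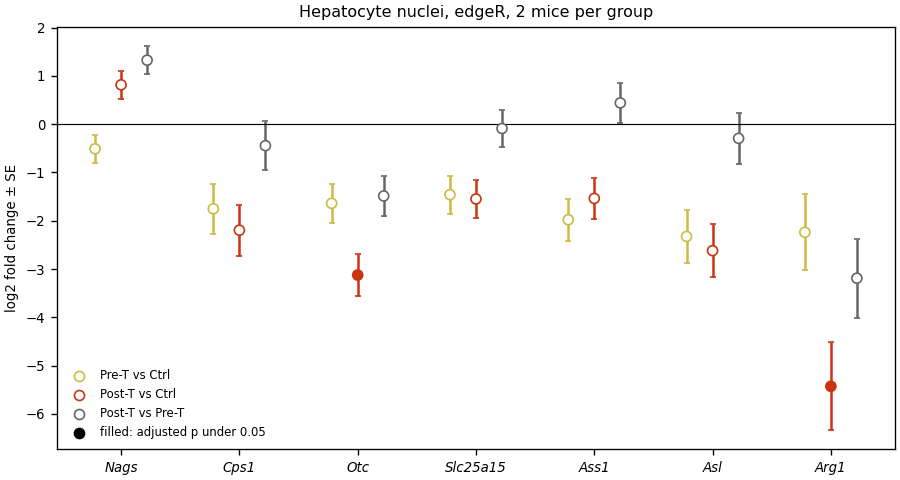
Log2 fold change (vertical axis) of each member in hepatocyte nuclei in 3 comparisons, with bars of 1 SE from the edgeR fit on 2 mice per group and filled points where the adjusted p was under 0.05. Only Otc at -3.12 and Arg1 at -5.43 in Post-T against Ctrl are filled, and Nags is above 0 in both Post-T comparisons.

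Free RNA released from broken cells enters every droplet, and its urea cycle content differed between groups. In endothelial nuclei, which are not known to run the cycle, Cps1 had 3.93 and 3.24 UMIs per nucleus in Ctrl, 0.731 and 1.65 in Pre-T and 0.518 and 0.601 in Post-T. T nuclei gave 3.40 and 2.05 in Ctrl, 0.326 and 0.954 in Pre-T and 0.520 and 0.296 in Post-T. In hepatocyte nuclei of the same mice Cps1 had 19.9 and 28.4 UMIs per nucleus in Ctrl, 8.14 and 19.3 in Pre-T and 7.56 and 10.8 in Post-T. Endothelial nuclei thus carried between 5.54 and 19.8% of the hepatocyte value per nucleus for Cps1. For Arg1 the share was between 7.34 and 16.7%. For Otc the share was between 8.18 and 20.2%, at 8.18% in Post-T 1 and 18.6% in Post-T 2. For Nags it was 35.4 and 16.5% in Ctrl and 4.72 and 5.04% in Post-T, and T nuclei held no Nags UMI in both Ctrl mice and in Post-T 1. These Nags shares rest on few UMIs, with 0.0218 and 0.0114 per endothelial nucleus in Ctrl and 0.00833 and 0.0118 in Post-T. The T nuclei without a Nags UMI numbered 125, 222 and 75. By a limit of 3 counts that allows shares of T nuclei with a UMI of up to 2.4, 1.35 and 4%.

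In the endothelial fit 1 member passed in Post-T against Ctrl, Cps1 at a log2 difference of -2.37 ± 0.40 (edgeR adjusted p = 0.0375), when 1.41% of 14886 genes were lower. In this comparison 5 members and 2865 of the 14886 genes had an unadjusted p under 0.05. No member passed in Pre-T against Ctrl, where 0.0537% of genes were lower and 1 member and 1754 of the 14886 genes had an unadjusted p under 0.05. None passed in Post-T against Pre-T either, where 0.47% were lower and 0 members and 2729 genes had such a p. DESeq2 called 1 member lower in Pre-T against Ctrl, when 1.55% of its genes were lower, and 0 in Post-T against Pre-T, when 2.02% were. In Post-T against Ctrl it called 2 members lower, and the share over all its genes was not counted. Endothelial Arg1 was lower in Post-T by a log2 difference of -3.98 ± 1.05 (edgeR adjusted p = 0.106). With the endothelial UMIs per nucleus subtracted from the hepatocyte sums, the Post-T differences were -3.62 ± 0.45 for Otc (edgeR adjusted p = 0.0504) and -5.98 ± 0.93 for Arg1 (adjusted p = 0.0655), larger than without subtraction, and no member passed. In this setting the Cps1 difference was -2.57 in Post-T.

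Arg1 and Cps1 UMIs of the same nuclei give a ratio that does not depend on the depth of a nucleus. In hepatocyte nuclei there were 0.301 and 0.368 Arg1 UMIs per Cps1 UMI in Ctrl, 0.273 and 0.225 in Pre-T and 0.0759 and 0.00938 in Post-T. Endothelial nuclei gave 0.246 and 0.302 in Ctrl, 0.284 and 0.343 in Pre-T and 0.185 and 0.0124 in Post-T. Fibroblast or stellate nuclei gave 0.272 and 0.335, 0.290 and 0.339, and 0.169 and 0, the last from 37 Cps1 UMIs. The ratio was low in each of these classes in Post-T 2, while in Post-T 1 the hepatocyte value was below that of the endothelial and stellate nuclei. In T nuclei of Post-T 1 the ratio was 0.0769, next to the hepatocyte value, from 39 Cps1 UMIs.

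**Figure D3:**
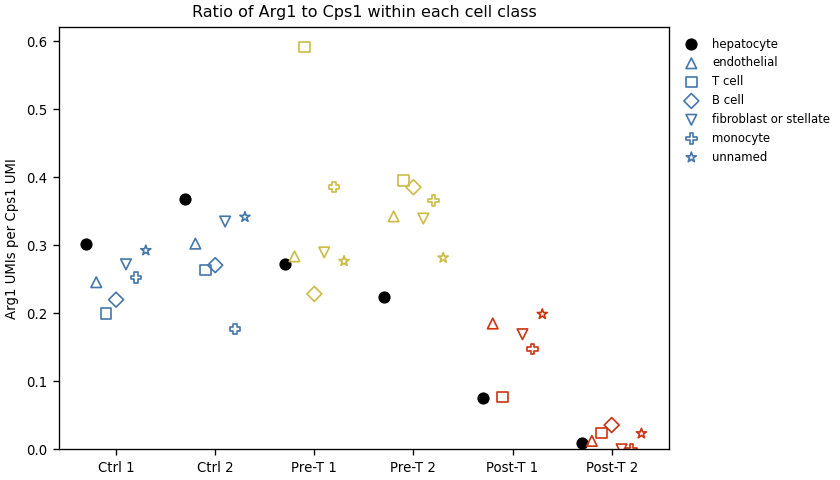
Arg1 UMIs per Cps1 UMI (vertical axis from 0) within each cell class of each mouse, black circles for hepatocyte nuclei and open symbols for 6 other classes of nuclei, where a class had at least 20 Cps1 UMIs. Post-T 2 is near 0 in all classes, and its hepatocyte ratio was 0.00938.

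To set shares of nuclei side by side at equal depth, each nucleus was also thinned to 500 UMIs. Cps1 was then found in 80.8% of hepatocyte nuclei in each Ctrl mouse, in 27.6 and 52.9% in Pre-T and in 20.1 and 24.5% in Post-T. Endothelial nuclei at the same depth gave 57.1 and 48.9% in Ctrl, 9.52 and 21.5% in Pre-T and 15.6 and 11.4% in Post-T. They were shallower than hepatocyte nuclei before thinning, with medians of 2053 and 1643 UMIs in Ctrl and 1154.5 and 1877 in Post-T. If every droplet holds a like number of free RNA UMIs, these make up more of a thinned endothelial nucleus. The endothelial shares are therefore not the background of the thinned hepatocyte shares. Arg1 was found in 43.8% (exact 95% interval 42.2 to 45.4) and 54.6% (52.6 to 56.5) of hepatocyte nuclei in Ctrl, and in 12.4 and 22.4% in Pre-T. In Post-T 1 the Arg1 share was 2.81% (2.06 to 3.73), against 2.08% (1.17 to 3.41) in its endothelial nuclei. In Post-T 2 it was 0.473% (0.174 to 1.03), against 0.187% (0.0385 to 0.544), and at this depth the intervals of the classes overlapped in both Post-T mice. In thinned T nuclei of Post-T 2 an Arg1 UMI was found in 0 of 142, which by a limit of 3 counts allows a share of nuclei with a UMI of up to 2.11%. As deposited the hepatocyte Arg1 shares were 84.0 and 88.6% in Ctrl and 15.7 and 3.23% in Post-T. The endothelial ones, from shallower nuclei, were 52.8 and 46.2% in Ctrl and 6.53 and 0.746% in Post-T. Per nucleus, Arg1 had 0.574 UMIs in hepatocyte and 0.0958 in endothelial nuclei of Post-T 1, and 0.102 and 0.00746 in Post-T 2. The overlap after thinning therefore does not place hepatocyte Arg1 at the endothelial level. The intervals and limits cover counting error only.

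By the split used here most hepatocyte nuclei of Post-T were pericentral, and most of those of Ctrl were periportal. Hepatocyte nuclei were split by whether they held more UMIs of 12 periportal genes (such as Cyp2f2, Hal and Sds) or of 12 pericentral genes (such as Glul, Cyp2e1 and Oat), and no urea cycle gene was in either list. Pericentral nuclei made up 13.9 and 17.0% of hepatocytes in Ctrl, 62.3 and 28.9% in Pre-T and 94.9 and 99.9% in Post-T, and Post-T 2 had 1 periportal nucleus. The names tell which list had more UMIs and not a place in the liver. In the main and the Nkd1-high cluster of Post-T 1 (below), Cyp2e1 was at 774 and 421 CPM and Oat at 155 and 124. In the Ctrl cluster with the most Glul, Cyp2e1 was at 2181 and 3220 CPM and Oat at 288 and 206. Glul went the other way, at 1488 and 2025 CPM against 938 and 436. The main cluster of Post-T 2 had Cyp2e1 at 1800 and Oat at 260 CPM. In Ctrl 1, Cps1 had 4967 CPM in periportal and 1742 in pericentral nuclei, and in Ctrl 2 it had 5831 and 2883. The periportal level was 20.2 times the pericentral one in Pre-T 1 and 7.09 times in Pre-T 2. The ratio was 2.85 and 2.02 in the Ctrl mice and 3.37 in Post-T 1, so it was higher in both Pre-T mice than in the other 3. Hepatocytes of Pre-T 1 and Post-T 1, but not of Pre-T 2, included a Nkd1-high cluster (below). Its 824 nuclei in Pre-T 1 had Cps1 at 54.5 CPM, with Glul at 25.7 and Hal at 0.0425 UMIs per nucleus. This cluster was not set apart in the zone ratios of any gene, and its part in them was not tested.

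Arg1 was 4.27 and 2.39 times higher in periportal than pericentral nuclei of the Ctrl mice, 16.6 and 6.81 times in Pre-T and 11.6 times in Post-T 1. Ass1 had ratios of 3.80 and 3.79 in Ctrl, 9.79 and 3.60 in Pre-T and 1.86 in Post-T 1. Nags had nearly the same level in both zones, with ratios from 0.718 to 1.05 in the 5 mice that had nuclei of both. These are descriptions with no test, because the nuclei were sorted by values in the same nuclei.

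Within periportal nuclei Cps1, Arg1 and Otc were at lower levels in the WD mice than in both Ctrl mice, and Nags was not. Cps1 had 4967 and 5831 CPM in Ctrl, 2856 and 3247 in Pre-T and 2746 in the 81 periportal nuclei of Post-T 1. Arg1 had 1532 and 2192 CPM in Ctrl, 766 and 727 in Pre-T and 523 in Post-T 1. Otc had 507 and 495 CPM in Ctrl, 235 and 292 in Pre-T and 96.1 in Post-T 1. Nags had 13.8 and 11.6 CPM in Ctrl, 12.01 and 9.54 in Pre-T and 17.5 in Post-T 1. In a fit on periportal nuclei without Post-T 2, 6 of 7 members passed in Pre-T against Ctrl in the lower direction, when 3.34% of genes did, and Nags did not (edgeR adjusted p = 0.244). There Asl had a log2 difference of -1.99 (adjusted p = 0.0216), Arg1 -1.60 (adjusted p = 0.016) and Cps1 -1.11 (adjusted p = 0.0496), smaller than over all hepatocyte nuclei. This fit was chosen after seeing the data, and the Post-T group is then 1 mouse, assumed to vary like the others. In pericentral nuclei alone, also chosen after seeing the data, no member passed in any comparison, and Ass1 had a log2 difference of 0.13 between Post-T and Ctrl (edgeR adjusted p = 0.914). Arg1 still had -4.58 ± 0.88 there (adjusted p = 0.0977).

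**Figure D4:**
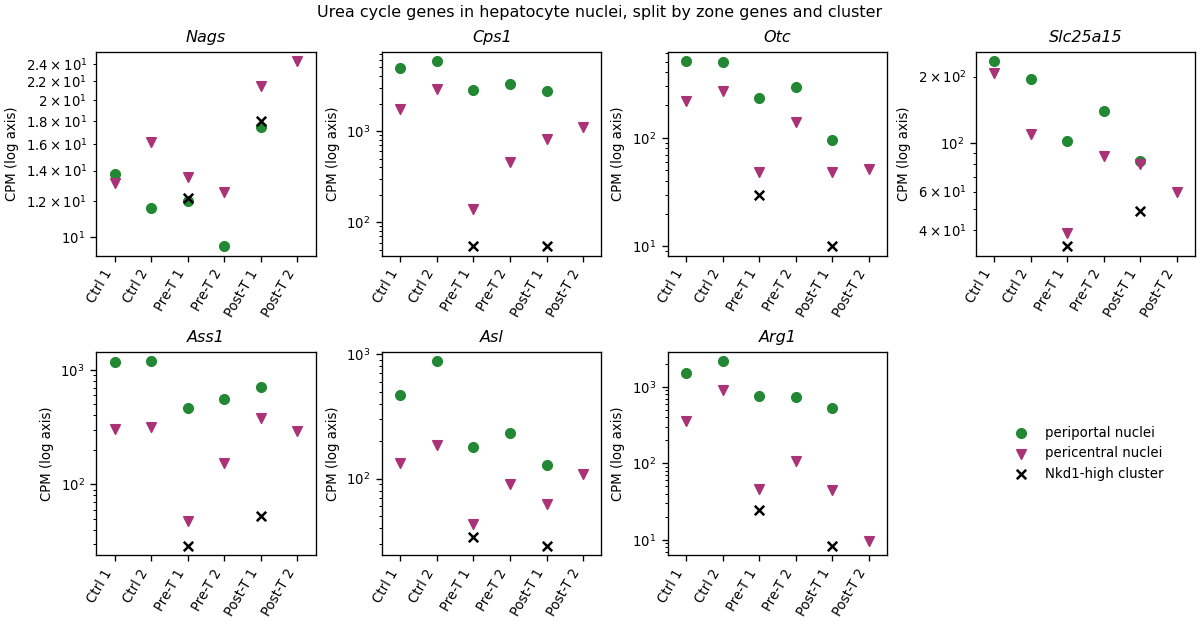
Level of each member in CPM (log axes) in periportal nuclei (green circles), pericentral nuclei (purple triangles) and the Nkd1-high cluster (crosses) of each mouse, where at least 20 nuclei were present. Periportal Cps1 lies at 2746 CPM in Post-T 1 and at 4967 and 5831 in Ctrl, and the crosses lie at 54.5 and 55.1.

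A hepatocyte cluster shared by Pre-T 1 and Post-T 1 held little Cps1. It was picked, after its values were seen, for Nkd1, a target and brake of Wnt signaling, with 14.5 and 12.3 UMIs per nucleus in its 2 mice. It held 824 nuclei of Pre-T 1 and 647 of Post-T 1, 37.5 and 39.5% of their hepatocytes, 1 nucleus of Post-T 2 and none of the other mice. Its nuclei also carried Glul at 25.7 and 17.2 UMIs per nucleus and Axin2 at 3.26 and 4.04. Cps1 was at 0.47 UMIs per nucleus in both mice, where T nuclei of the same mice held 0.326 and 0.520 and endothelial nuclei 0.731 and 0.518. In CPM, Cps1 was at 54.5 and 55.1, Arg1 at 24.2 and 8.37, and Nags at 12.2 and 18.0. In the other main cluster of Pre-T 1, which also held all 865 hepatocytes of Pre-T 2, Cps1 was at 2074 and 2434 CPM. Without the Nkd1-high cluster, a setting chosen after seeing the data, 4 members passed in Post-T against Ctrl in the lower direction, when 3.03% of genes did, namely Cps1 at a log2 difference of -1.84 (edgeR adjusted p = 0.0328), Otc, Asl and Arg1 at -4.78 (adjusted p = 0.0497).

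In Post-T 2, Arg1 was far lower than in Post-T 1 while Cps1 was not. A single cluster of Post-T 2 held 1265 of its 1268 hepatocyte nuclei, with Glul at 52.2 and Meg3 at 27.4 UMIs per nucleus. Cps1 was at 1126 CPM and Ass1 at 295 in these nuclei, while Arg1 was at 10.5. The main cluster of Post-T 1, with 971 nuclei and Glul at 12.3 UMIs per nucleus, had Cps1 at 1471, Ass1 at 635 and Arg1 at 107 CPM. In the Ctrl cluster with the most Glul (6.85 and 3.51 UMIs per nucleus) Arg1 was at 325 and 1409 CPM.

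Genes around the cycle were read from lists of related enzymes, carriers and regulators. Of 14 genes of ammonia, glutamate and glutamine handling, 6 were lower and 0 higher in Post-T against Ctrl, with a median log2 difference of -1.57. Hal, which opens histidine breakdown, had 1127 and 1175 CPM in Ctrl and 0.881 and 1.15 in Post-T, a log2 difference of -10.12 ± 0.66 (edgeR adjusted p = 0.015), and also fell against Pre-T (-6.52 ± 0.58, adjusted p = 0.0493). Sds, the serine dehydratase, fell by a log2 difference of -7.68 ± 0.65 (edgeR adjusted p = 0.015), and Amdhd1, the next but one step after Hal, by -4.82 ± 0.39 (adjusted p = 0.015). Asns, which makes asparagine from aspartate, also fell (edgeR adjusted p = 0.015), from 24.5 and 17.8 CPM in Ctrl to 3 UMIs in each Post-T mouse. Glul, which makes glutamine from ammonia, had 175 and 172 CPM in Ctrl, 1652 and 426 in Pre-T and 1703 and 5408 in Post-T, with no overlap between Ctrl and the WD mice, but its log2 difference of 4.45 ± 0.96 in Post-T did not pass (edgeR adjusted p = 0.0719).

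Of 14 other genes of arginine, ornithine, proline and polyamines, 1 was lower in Post-T and 0 higher, with a median log2 difference of -0.11. That gene was Agmat, an agmatinase, with 152 and 235 CPM in Ctrl and 54.1 and 42.0 in Post-T (edgeR adjusted p = 0.0321). Among 15 carriers 1 was higher and 1 lower. The ammonia transporter Rhbg rose, from 1.98 and 1.43 CPM in Ctrl to 62.0 and 92.2 in Post-T, a log2 difference of 5.53 ± 0.94 (edgeR adjusted p = 0.0477). Slc38a3, a glutamine transporter, fell by a log2 difference of -2.20 ± 0.36 (adjusted p = 0.0463), and Slc38a4 had -1.83 ± 0.36 (adjusted p = 0.0605). No gene passed among 14 regulators in any comparison, where the lowest adjusted p in Post-T against Ctrl belonged to Cebpa, a factor known to act on urea cycle genes (log2 difference -1.51 ± 0.44, edgeR adjusted p = 0.124). The glucocorticoid receptor gene Nr3c1 had 0.81 ± 0.25 (adjusted p = 0.133).

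Of 18 other amino acid breakdown enzymes 2 were lower in Post-T and 0 higher. They were Gldc of the glycine cleavage system at a log2 difference of -7.43 ± 0.91 (edgeR adjusted p = 0.0277) and Tdo2, which opens tryptophan breakdown, at -2.42 ± 0.34 (adjusted p = 0.0339). Of 8 gluconeogenesis genes G6pc was lower (-3.26 ± 0.34, edgeR adjusted p = 0.0213) and Pfkfb1 higher (1.89 ± 0.24, adjusted p = 0.0286). Of the 12 periportal genes 7 were lower and of the 12 pericentral genes 2 were higher in Post-T against Ctrl, with median log2 differences of -5.26 and 2.38. Of the 12 genes often raised in liver tumors none passed in any comparison, with a median log2 difference of 2.06 in Post-T. No gene of these lists passed in Pre-T against Ctrl. Several genes stand on more than 1 list, Hal, Sds and Gls2 among them.

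**Figure D5:**
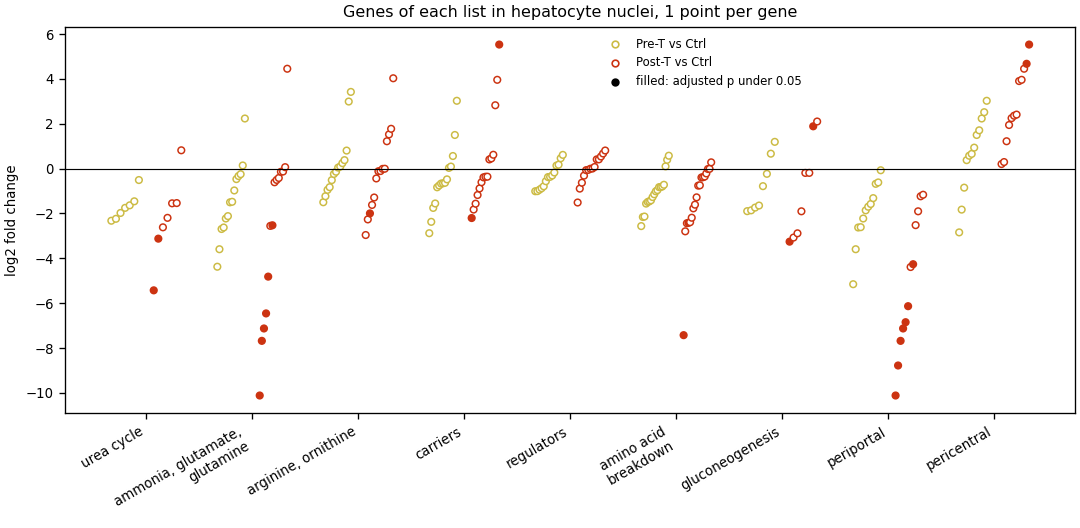
Log2 fold change (vertical axis) of every gene of 9 lists in hepatocyte nuclei, 1 point per gene, yellow for Pre-T and red for Post-T against Ctrl, filled where the adjusted p was under 0.05. The filled points are all from Post-T, and in the periportal list they reach -10.12 (Hal).

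Markers of other cell types in the hepatocyte nuclei moved with the groups as well, and their part in the results was not tested. All 12 T cell markers had UMIs in 5 of the mice (Cd3d was at 0 in Post-T 2), and summed to 14.1 and 19.8 CPM in Ctrl, 116 to 138 in Pre-T and 113 to 121 in Post-T, led by Themis in all 4 WD mice. The 10 B cell markers summed to 134 to 168 CPM in Ctrl, 174 to 213 in Pre-T and 288 to 766 in Post-T, led by Ralgps2. The 8 mesothelial markers summed to 33.7 to 115, 121 to 165 and 259 to 335 CPM, led by Ildr2, and 3 of the 8 were at 0 in each Post-T mouse. The 7 erythroid markers, led by globin genes or Alas2, summed to 95.3 and 241 CPM in Ctrl, 219 and 585 in Pre-T, and 998 and 86.9 in Post-T. In the Nkd1-high cluster 5 hepatocyte and 4 erythroid markers were raised over the median cluster, and in the main cluster of Post-T 1 it was 5 of each. The mean log2 rise of the erythroid list was the larger in both, at 1.01 against 0.71 and 1.56 against 0.74, and no erythroid marker was among their 10 leading genes. The class of these clusters rests on fewer hepatocyte markers than that of the others, where 8 to 11 were raised. The 12 endothelial markers summed to between 94.3 and 162 CPM in Ctrl, 156 and 172 in Pre-T and 73.7 and 123 in Post-T.

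The genes whose hepatocyte level was most like the mean pattern of the 7 members over the 6 mice were AI463229 (Pearson r = 0.9949), Znrf1 (0.9938), Aldh7a1 (0.9907), Fn1 (0.9903) and Albfm1 (0.9879), out of 3927 genes with a mean of at least 50 CPM. These r values describe 6 mice that share the group structure and have no test. Aldh7a1, a lysine breakdown enzyme, had 215 and 185 CPM in Ctrl, 74.6 and 107 in Pre-T and 78.5 and 77.5 in Post-T. Fn1, fibronectin, had 1375 and 1250 CPM in Ctrl, 558 and 823 in Pre-T and 580.2 and 620.3 in Post-T.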

How the data were processed

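Nuclei were isolated from snap-frozen liver and sequenced on the 10x Genomics 3′ assay (Next GEM v3.1). The authors aligned reads to mm10 with Cell Ranger 6.1.1 (their processing notes) and deposited unnormalized UMI counts for each gene and barcode. Whether intronic reads were counted is not given in the sources used here. Nuclei with more than 200 and fewer than 5000 genes and under 5% mitochondrial UMIs were kept. They were clustered with scanpy 1.11.5 (2000 variable genes without the members, 30 components, 15 neighbours, Leiden resolution 1) and clusters were named from marker lists (at least 3 markers at more than 2 times the median cluster's UMIs per nucleus, in at least 5% of nuclei; classes other than hepatocyte also needed a marker among the 10 leading genes or a strong mean rise). Scrublet marked under 0.04% of each library, which means that it did not work here, so doublets were not removed.

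UMI counts were summed per mouse over hepatocyte or endothelial nuclei and compared with edgeR 4.0.16 (TMM, quasi-likelihood, 3 residual degrees of freedom, at least 10 counts over 6 mice, Benjamini-Hochberg threshold 0.05), with DESeq2 1.42.0 as an alternative, in R 4.3.3. The script was tested on simulated data. Named genes were the 7 members, up to 4 genes a list by lowest adjusted p, and the 5 genes most like the members. Members and lists were chosen with earlier results of these data known. Replicate numbers were not taken to pair the mice, since the labels name no shared litter or batch. Cps1, Asl and Arg1 had no promoter window and none is shown. Alternatives covered scaling, filters, samples, clustering, free RNA and zones.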

Additional observations from a re-analysis of the deposited data

Results flagged for a closer look

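Nuclei at or above the upper limit of 5000 genes entered no comparison, and they also held urea cycle transcripts. In them Nags was at 17.1 CPM in Post-T 1 (289 nuclei) and 15.01 in Post-T 2 (79 nuclei), above the 10.9 and 12.2 CPM of the same kind of nuclei in the Ctrl mice, which is what brought them here. These are 137 and 30 UMIs of Nags, and the difference was not tested. The other 6 members were lower in both Post-T mice than in both Ctrl mice there, with Arg1 at 1368 and 1799 CPM in Ctrl and 124 and 23.0 in Post-T.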

How the results depend on the processing

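The 6 members other than Nags kept their lower direction against Ctrl in 311 of 312 values over 26 alternatives, of which 31 newly passed and 17 no longer passed the threshold. The exception was Ass1 in pericentral nuclei only (Post-T vs Ctrl, 0.13). The alternatives refit the same mice and are not independent. Allowing members in clustering left 12116 hepatocyte nuclei, as in the main setting, and leaving out scrublet doublets left 12115. In the settings below a pair or triple of counts gives all genes called in Pre-T vs Ctrl, Post-T vs Ctrl and Post-T vs Pre-T in that order, where the main counts were 1, 442 and 24, and then the members called, mainly 0, 2 and 0. The cause of these shifts was not tested. DESeq2 gave 928, 2478 and 1821 genes and 5, 6 and 3 members. No filter on low counts gave 217, 1316 and 511 genes and 5 members in Post-T vs Ctrl and 1 in Post-T vs Pre-T. Only the 2 groups compared gave 205, 283 and 0 genes and 1 member in Post-T vs Ctrl. Naming each nucleus alone gave 7, 242 and 0 genes and 1 member. Counting low-depth unnamed clusters as hepatocytes gave 0, 298 and 0 genes and 1 member in Post-T vs Ctrl. No upper gene limit gave 4, 562 and 69 genes and 1 member in Post-T vs Ctrl. Thinning to 1000 UMIs gave 5, 522 and 66 genes and 4 members in that comparison. Subtracting endothelial free RNA gave 0, 99 and 0 genes and 0 members, and T nuclei gave 43, 174 and 0 genes and 1 member. Leiden resolution 0.5 gave 1, 296 and 0 genes and 1 member in Post-T vs Ctrl. RLE size factors and filterByExpr also gave 0 genes in Post-T vs Pre-T, and library sizes alone gave 62, where the median of all genes moved to 0.35 in Pre-T vs Ctrl and to -0.37 in Post-T vs Pre-T. Periportal nuclei only gave 1992, 962 and 261 genes and 5 and 4 members in the comparisons with Ctrl, and without Post-T 2 they gave 1170 and 10 genes in the comparisons with Pre-T and 6 members in Pre-T vs Ctrl. In the periportal setting with all mice, Post-T 2 entered with 1 nucleus. Leaving out the Nkd1-high cluster gave 22, 992 and 687 genes and 4 and 2 members in the Post-T comparisons. Pericentral nuclei only gave 0, 22 and 0 genes and 0 members. In endothelial nuclei DESeq2 gave 1 and 2 members in the comparisons with Ctrl, and no filter gave 3, 6 and 3. For no filter, and for DESeq2 in Post-T vs Ctrl, the share over all genes was not counted. These member counts therefore cannot be set against it.

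Nags in Pre-T vs Ctrl reversed to 0.033 with each nucleus named alone. In Post-T vs Pre-T, where no member was called, Cps1 reversed to 0.18 with each nucleus named alone and to 2.01 in pericentral nuclei. It also reversed to 0.53 in periportal nuclei, where Post-T 2 gave 1 nucleus. Slc25a15 reversed to 0.22 with no upper gene limit and 0.44 in pericentral nuclei, and Asl to 0.72 in pericentral nuclei. With 1 mouse left out at a time, the called genes ranged from 0 to 180, 0 to 1292 and 0 to 881, and the called members from 0 to 0, 0 to 2 and 0 to 2 in hepatocytes and from 0 to 0, 0 to 2 and 0 to 1 in endothelial nuclei. Hepatocyte values that changed sign then ranged from -0.067 to 1.12 (Ass1), -0.94 to 0.22 (Cps1), -0.90 to 0.32 (Asl) and -0.56 to 0.52 (Slc25a15), all Post-T vs Pre-T. In endothelial nuclei Nags ranged from -0.79 to 0.026, -0.73 to 0.071 and -0.24 to 0.37 in the 3 comparisons, and in Post-T vs Pre-T Cps1 ranged from -0.94 to 0.38, Ass1 from -1.55 to 0.61, Asl from -1.15 to 0.84 and Slc25a15 from -0.94 to 1.41.

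A replicate block gave 2, 272 and 0 genes and still 2 members in Post-T vs Ctrl, Otc (adjusted p = 0.0379) and Asl (0.0337), with Arg1 at 0.0642. The shared numbers did not pair the mice, since same-numbered mice correlated at -0.077, 0.0704 and 0.147 over 8254 genes. The 26 alternatives gave Otc an adjusted p between 2.61e-09 and 0.211 and Arg1 between 1.53e-10 and 0.279 in Post-T vs Ctrl. In that comparison Otc passed in 22 of the 26 and Arg1 in 13. Their log2 differences ran from -3.62 to -2.26 (Otc) and from -7.08 to -2.11 (Arg1). Depth limits Nags, with at most 0.234 UMIs per hepatocyte nucleus, and Arg1 in Post-T 2, with 0.102.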
